A study of Mus musculus with 6 samples.

Results

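Autophagy delivers cytoplasm and organelles to the lysosome, and ER-phagy is the form of it that removes pieces of endoplasmic reticulum (ER). This set holds 50 mouse genes of that machinery, listed by symbol around Rb1cc1 and matched to Ensembl identifiers by GENCODE M21. All 50 were found among the 55536 genes counted, and all 50 are among the 21465 genes that passed a filter on low counts. Rb1cc1 was placed in the list because of its difference in these same testes, so its own values are given as a description.

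RNA was measured in whole testes of mice aged 7 weeks, 3 KOStra8 and 3 HETStra8, with 1 library per mouse. KOStra8 carries Sel1L flox/∆ with Stra8-Cre, a transgene in which the Stra8 promoter drives Cre in male germ cells. HETStra8 littermates are given as Sel1L flox/∆ in the series' design text, whereas the paper's name also covers Sel1L flox/+;Stra8-Cre, and the genotype of each HETStra8 mouse is not given in the sources used here. SEL1L is the partner of the ubiquitin ligase HRD1 in ER-associated degradation (ERAD), which removes misfolded ER proteins. According to the study, SEL1L staining remained in spermatogonia and Sertoli cells of KOStra8 testes, so a whole-testis value mixes cells with and without the deletion.

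Autophagy starts when the ULK complex, made of a ULK kinase with ATG13, ATG101 and the scaffold protein RB1CC1 (also called FIP200), is activated at the ER. A lipid kinase complex built on PIK3C3 and BECN1 then marks the membrane, ATG9 and ATG2 proteins bring lipid, and conjugation enzymes attach LC3 and GABARAP proteins to it. Receptors that bind LC3 or GABARAP carry the cargo, and those that sit in the ER membrane or bind to it make ER-phagy selective. Autophagy is active in the testis, where germ cells discard much of their cytoplasm while they form sperm.

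Library totals lay between 28875108 and 36526695 counts. Reads of Sel1l itself came to 1549, 1603 and 1413 in HETStra8 and to 846, 636 and 741 in KOStra8, without overlap of the groups, and its log2 fold change was -1.07 (edgeR's quasi-likelihood test with Benjamini-Hochberg adjustment, adjusted p = 0.00061). Without HETStra8 mouse 3, 443 genes passed an adjusted p of 0.01, against 4 with all 6 mice. The epididymal gene Crisp1 had 220 counts, or 7.0 CPM (counts scaled to the size of the library), in HETStra8 mouse 1 and 0 to 11 counts in the other 5 libraries, while the other 5 epididymal markers had 0 to 12 counts in that mouse. Markers of every germ cell stage and of Sertoli cells were present in all 6 libraries. The batch entry of the labels reads total RNA for all 6 mice and so separates none of them.

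Of the 50 members, Rb1cc1 alone passed an adjusted p of 0.01 in edgeR's quasi-likelihood test with Benjamini-Hochberg adjustment over all genes, as did 0.0186% of all genes tested, 0.014% higher and 0.00466% lower. With a change of over 2-fold as well, a level reached by 0.00932% of all genes, no member was called. No further member passed an adjusted p of 0.05, a level reached by 0.0233% of all genes. At an unadjusted p of 0.05, 2 members were higher in KOStra8, Rb1cc1 and Atg4c, and 5 were lower, Atg9a, Sqstm1, Retreg3, Tex264 and Calcoco1. Those 7 members of 50, or 6 of 49 without Rb1cc1, stand beside 12.3% of all genes tested, with 7.13% higher and 5.12% lower. The numbers higher and lower were 1 and 3 without HETStra8 mouse 1, 5 and 17 without HETStra8 mouse 3, 5 and 4 without KOStra8 mouse 1, and 1 and 2 without KOStra8 mouse 3. Without HETStra8 mouse 3, 2428 of the 22091 genes then tested were higher and 1947 lower at that level. Shares of all genes are not given here for the other mice left out. The log2 fold change was below 0 for 35 of the 50 members, compared with 51.5% of all genes, and the median log2 fold change was -0.09 for the members and -0.01 for all genes. With GC content and the length of transcripts both corrected for, these medians were -0.05 and 0.0066. Below 0 were then 32 members, beside 10382 of the 21465 genes tested.

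Levels of the members spanned a wide range in the control testes. Per kilobase of exon, the scale used here to compare genes, Gabarap stood highest at 138 ± 7.68 CPM per kb (SD, n = 3 HETStra8 mice). Map1lc3a followed at 130.2 ± 12.0 and Nbr1 at 127 ± 5.63 CPM per kb, and these 3 means differed by less than the sum of their SDs. The lowest were Atg16l2 at 0.178 ± 0.056, Ccpg1 at 0.392 ± 0.029 and Wdr45 at 0.4 ± 0.124 CPM per kb. Of the exon bases of Ccpg1 and Wdr45, 42.9% and 24.7% overlap other gene models on the same strand. Both levels are therefore uncertain, and too low if reads shared with those models went uncounted. Among HETStra8 mice the coefficient of variation of a member ran from 1.31% for Atl3 to 31.8% for Atg16l2. Summed over the 50 members, HETStra8 mice had 4704 to 5050 CPM and KOStra8 mice 4804 to 5012 CPM, so the sums of the groups overlapped.

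**Figure D1:**
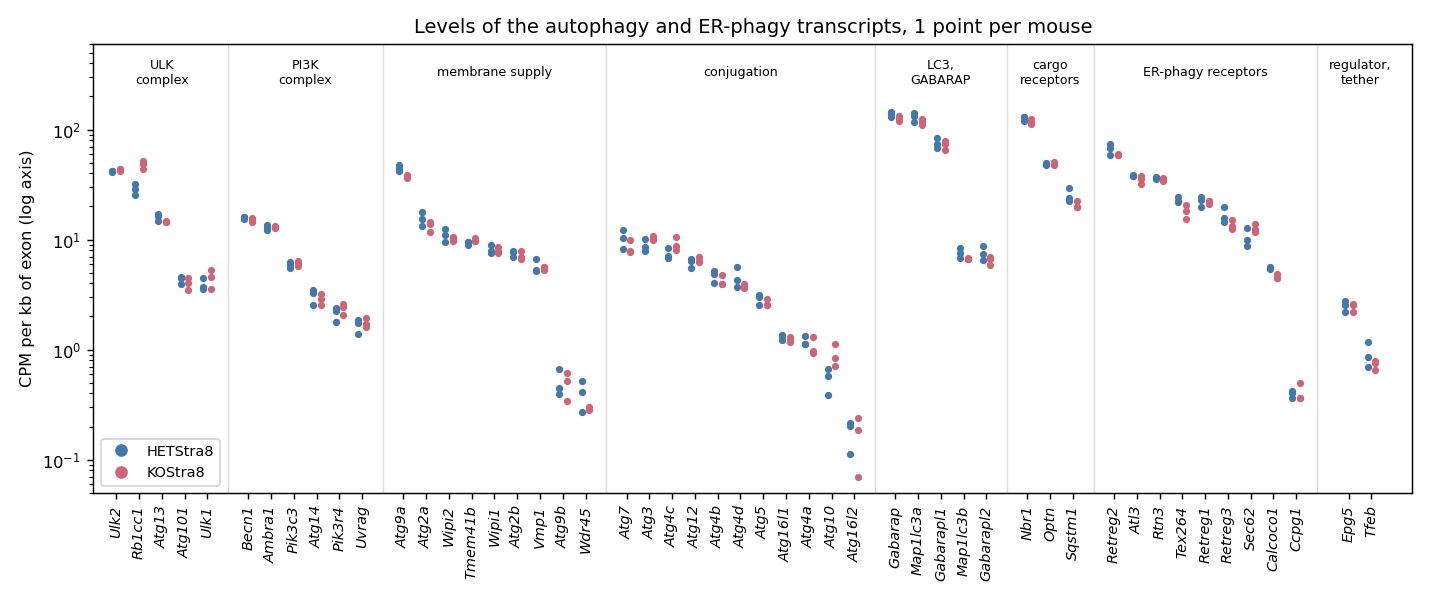
Level of each of the 50 members in each mouse, in CPM per kb of exon on a log axis, with members grouped by role and ordered by their HETStra8 level. HETStra8 mice are blue and KOStra8 mice red, 1 point per mouse. Gabarap, Map1lc3a and Nbr1 are at the top and Atg16l2 at the bottom, and Rb1cc1 is the member of the ULK complex whose red points stand farthest from the blue ones.

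Rb1cc1 (ENSMUSG00000025907, chr1:6206197-6276648 of GRCm38, plus strand) was the second most abundant member by CPM. Mice 1, 2 and 3 of HETStra8 had 376, 423 and 469.7 CPM, and those of KOStra8 had 709, 648.5 and 763 CPM. Each KOStra8 mouse was above each HETStra8 mouse. The mean was 423 ± 46.7 CPM in HETStra8 and 707 ± 57.4 CPM in KOStra8 (SD, n = 3 each). The log2 fold change was 0.74 with a 95% interval of 0.56 to 0.93, which is 1.67-fold on the linear scale. Per kilobase, Rb1cc1 ranked 11 of 50 in HETStra8, at 28.8 ± 3.18 CPM per kb, since its merged exons are the longest of the set at 14690 bases. Its longest single transcript has 7607 bases, so this rank depends on the length used.

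The Rb1cc1 difference was smaller after GC content and transcript length were corrected for together. Its longest transcript has a GC content of 39.1%, the lowest of the 50 members. Across the 21457 tested genes with a GC value, log2 fold change and GC content had a Spearman correlation of -0.46. Across the 50 members the correlation was -0.576, and -0.549 without Rb1cc1, where all points share the same 6 libraries. After the correction, the log2 fold change of Rb1cc1 was 0.46, and the correlation over the members was -0.04. The adjusted p of Rb1cc1 was 0.0027 there (edgeR's quasi-likelihood test with Benjamini-Hochberg adjustment). With the replicate number as a block as well it was 0.011 in the same test, above 0.01. Since Rb1cc1 was chosen on this contrast, its p-values here and below are a description and do not test it. Without the correction, leaving out single mice kept the log2 fold change between 0.66 and 0.83. The call at an adjusted p of 0.01 was lost without HETStra8 mouse 2 and without any 1 of the 3 KOStra8 mice, when the adjusted p of edgeR's quasi-likelihood test with Benjamini-Hochberg adjustment was at most 0.043.

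**Figure D2:**
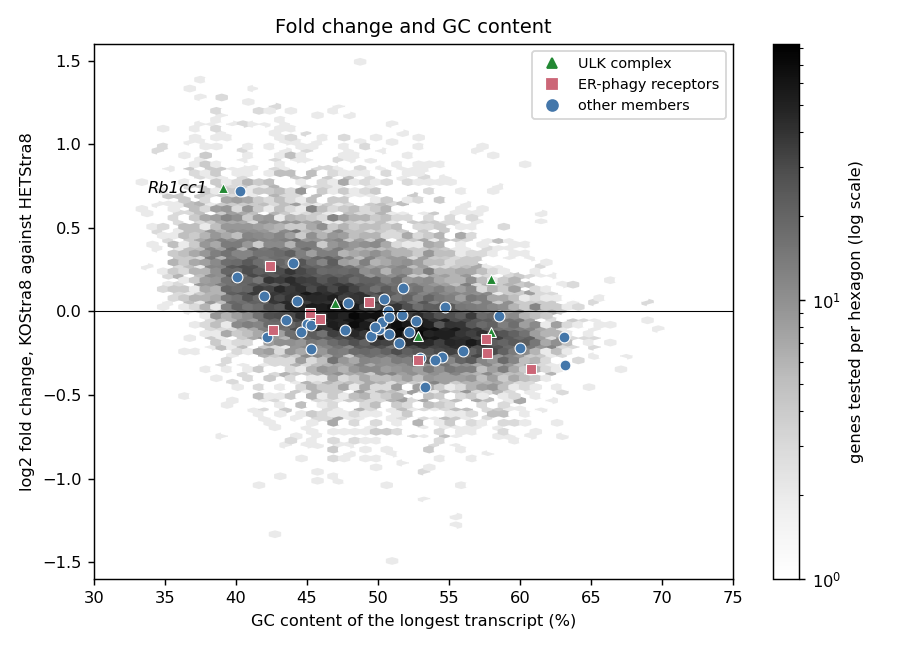
Log2 fold change of KOStra8 against HETStra8 (vertical axis) plotted against the GC content of the longest transcript in percent (horizontal axis). Grey hexagons count all genes tested on a log scale, green triangles are the ULK complex, red squares the ER-phagy receptors and blue circles the other members. The cloud of all genes slopes downward, with a Spearman correlation of -0.46, and Rb1cc1 lies at its low-GC end with a log2 fold change of 0.74.

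A list of early meiotic markers also summed to more in KOStra8, mostly through Smc1b, Sycp3 and Hormad1. The summed level of 9 markers of leptotene and zygotene spermatocytes was 509, 552 and 739.7 CPM in HETStra8 and 759, 778 and 816 CPM in KOStra8, without overlap. Of the 9, 6 had a log2 fold change above 0, none was at 0 counts in every library, and Smc1b alone reached an unadjusted p of 0.05, with a log2 fold change of 0.69. Sycp3 and Hormad1 were at 0.49 and 0.44 with overlapping groups, while Dmc1, Meiob and Prdm9 were at 0.03, 0.05 and -0.15. Spo11, Tex101 and Mei1 were at 0.15, -0.04 and -0.17. Mean CPM in HETStra8 and KOStra8 was 183.5 and 296.2 for Smc1b, 104.4 and 146.2 for Sycp3, and 77.5 and 104.9 for Hormad1. These marker values were not corrected for GC content. The 9 markers of pachytene and diplotene spermatocytes, none at 0 counts in every library, summed to 6768 to 7137 CPM in HETStra8 and 6592 to 6956 CPM in KOStra8, with overlap. Of these 9, 4 had a log2 fold change above 0, and Mybl1 and Adam3, at 0.45 and 0.14, had groups without overlap. The part of these cells in the Rb1cc1 difference was not tested. In whole testis, more cells of a type and more RNA per cell cannot be told apart.

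In the main comparison, none of the 4 partners of RB1CC1 in the ULK complex reached an unadjusted p of 0.05. Their log2 fold changes lay on both sides of 0. Ulk1, which encodes the kinase most studied as the trigger of autophagy, had 24.1, 22.9 and 29.1 CPM in HETStra8 and 23.1, 29.5 and 34.4 CPM in KOStra8. The groups overlapped, and the log2 fold change was 0.19 with a 95% interval of -0.11 to 0.5. After the GC and length correction it rose to 0.33 (edgeR's quasi-likelihood test, unadjusted p = 0.095). With the replicate number as a block as well, it was 0.32 (unadjusted p = 0.0088 in the same test). Ulk2, the related kinase, had 246, 253 and 251 CPM in HETStra8 and 265, 249.5 and 262 CPM in KOStra8. The groups overlapped here too, with a log2 fold change of 0.05 and an interval of -0.09 to 0.19. Per kilobase, Ulk2 stood at 41.8 ± 0.61 and Ulk1 at 3.9 ± 0.51 CPM per kb in HETStra8 (SD, n = 3), so in these testes Ulk2 transcript exceeded Ulk1 transcript by far more than the spread.

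Atg13 and Atg101 encode the 2 HORMA-domain proteins of the complex. Atg13 had 75.2, 71.7 and 64.6 CPM in HETStra8 and 64.1, 63.6 and 63.3 CPM in KOStra8. Its groups did not overlap, as in 17.8% of all genes tested, but HETStra8 mouse 3 lay within 1 CPM of the highest KOStra8 mouse, and the log2 fold change of -0.15 had an interval of -0.33 to 0.03. Atg101 had 7.16, 7.31 and 6.33 CPM in HETStra8 and 6.44, 7.15 and 5.53 CPM in KOStra8. These groups overlapped, and the log2 fold change was -0.12, turning to 0.02 after correction for GC content and length.

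**Figure D3:**
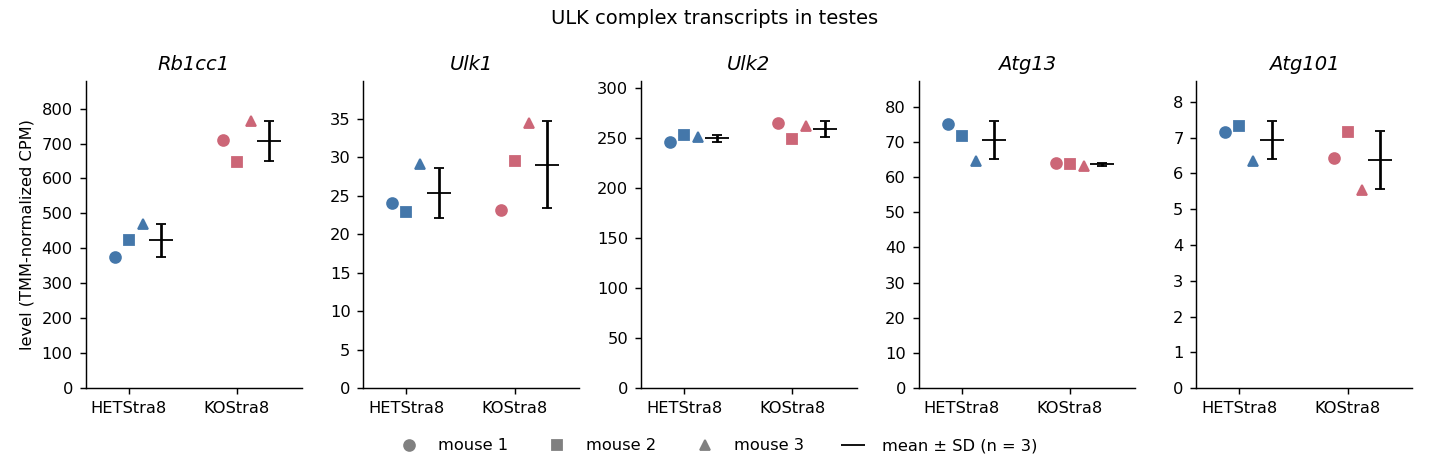
Level of Rb1cc1 and its 4 ULK complex partners in TMM-normalized CPM (vertical axes from 0), with 1 symbol per mouse and the mean ± SD of 3 mice beside each group. The groups of Rb1cc1 stand apart, at 376 to 470 and 648 to 763 CPM, while those of Ulk1, Ulk2 and Atg101 overlap and those of Atg13 nearly touch.

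Rb1cc1 was also expressed relative to its partners within each mouse. The log2 ratio of Rb1cc1 to the mean log2 CPM of the 4 partners was 3.15, 3.34 and 3.49 in HETStra8 and 4.15, 3.92 and 4.17 in KOStra8. The groups did not overlap, and the means differed by 0.75. After the GC and length correction the fitted difference was 0.37. On the linear scale, Rb1cc1 had 1.07 to 1.34 times the summed CPM of the partners in HETStra8 and 1.85 to 2.09 times in KOStra8, while the partners' sum itself stayed between 349.7 and 365.5 CPM in all 6 mice. Against single partners, the uncorrected difference in log2 ratio ran from 0.56 for Ulk1 to 0.89 for Atg13. Rb1cc1 and Ulk1 lay closer together after the correction, at log2 fold changes of 0.46 and 0.33. Since Rb1cc1 was chosen on this contrast, these ratios carry no test.

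Of the 9 ER-phagy receptors, 7 had a log2 fold change below 0, beside 51.5% of all genes, and 3 reached an unadjusted p of 0.05, all lower in KOStra8, beside 5.12% of all genes. After the GC and length correction 2 did, Tex264 and Atl3, both lower, beside 675 of 21465 genes lower at that level. Atl3 was not among the 3. With all 6 mice, none of the 9 receptors passed an adjusted p of 0.05. Their median log2 fold change was -0.11. The log2 ratio of Rb1cc1 to their mean log2 CPM was 2.5, 2.74 and 2.84 in HETStra8 and 3.55, 3.41 and 3.64 in KOStra8, a difference of 0.84 between the means, and the fitted difference was 0.53 after the GC and length correction. The groups of this ratio did not overlap for any of the 9 receptors taken singly, with differences from 0.46 for Sec62 to 1.09 for Tex264. All of these ratios share Rb1cc1, which was chosen on this contrast and whose own groups stood apart. They carry no test and do not count as separate results.

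Tex264, a single-pass ER membrane protein that binds LC3 and GABARAP proteins, had the lowest log2 fold change of the receptors. It had 69.5, 64.0 and 63.8 CPM in HETStra8 and 52.1, 59.6 and 43.9 CPM in KOStra8. All KOStra8 mice were below all HETStra8 mice. The log2 fold change was -0.34 with an interval of -0.57 to -0.12, but it failed the correction over all genes (edgeR's quasi-likelihood test with Benjamini-Hochberg adjustment, adjusted p = 0.236). With 60.8% its GC content was among the 3 highest of the members, and after the GC and length correction the log2 fold change was -0.19.

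Calcoco1 encodes a soluble receptor that reaches the ER through the VAP proteins. It had 31.5, 30.7 and 32.0 CPM in HETStra8 and 27.7, 25.7 and 25.9 CPM in KOStra8. The groups did not overlap, and the log2 fold change of -0.25 became -0.09 after the GC and length correction. Retreg3, one of the 3 reticulon-homology receptors that curve ER membrane, had 70.9, 51.7 and 56.4 CPM in HETStra8 and 54.3, 47.3 and 44.4 CPM in KOStra8. HETStra8 mouse 2 lay below KOStra8 mouse 1, and the log2 fold change was -0.29, with -0.17 after the correction.

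The other 2 receptors of that family were closer to 0. Retreg1, known for its role in sensory neurons, had means of 92.0 ± 9.69 and 91.2 ± 3.64 CPM (SD, n = 3) and a log2 fold change of -0.01. Retreg2 had the highest level per kilobase of the 9 receptors, 66.4 ± 7.48 CPM per kb in HETStra8. Its CPM was 219.9, 202 and 175 in HETStra8 and 180.5, 177 and 176 in KOStra8, so the groups overlapped through HETStra8 mouse 3, and the log2 fold change of -0.16 came to -4e-04 after the GC and length correction.

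Rtn3, whose long isoform acts on ER tubules, had means of 182 ± 5.2 and 176 ± 5.44 CPM, and Atl3, an ER-shaping GTPase, 384 ± 5.01 and 355 ± 30.2 CPM. Their log2 fold changes were -0.05 and -0.11. Atl3 has a GC content of 42.6%, and its value moved away from 0 to -0.29 after the GC and length correction (adjusted p = 0.164 in edgeR's quasi-likelihood test with Benjamini-Hochberg adjustment). Ccpg1, a receptor that binds RB1CC1 directly, had few reads assigned in every mouse, at 2.7 to 3.12 CPM in HETStra8 and 2.72 to 3.73 CPM in KOStra8. Its log2 fold change was 0.06.

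Sec62, a translocon subunit that also serves recovery from ER stress, was the receptor with the highest log2 fold change, 0.27. It had 38.1, 43.0 and 55.2 CPM in HETStra8 and 50.8, 59.6 and 54.1 CPM in KOStra8. HETStra8 mouse 3 lay above 2 of the KOStra8 mice, and the interval of -9e-04 to 0.54 included 0. Without HETStra8 mouse 3 the log2 fold change was 0.44 and passed an adjusted p of 0.05 but not of 0.01 (0.016, edgeR's quasi-likelihood test with Benjamini-Hochberg adjustment), as did 4.9% of all genes without that mouse. After the GC and length correction it was 0.15.

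**Figure D4:**
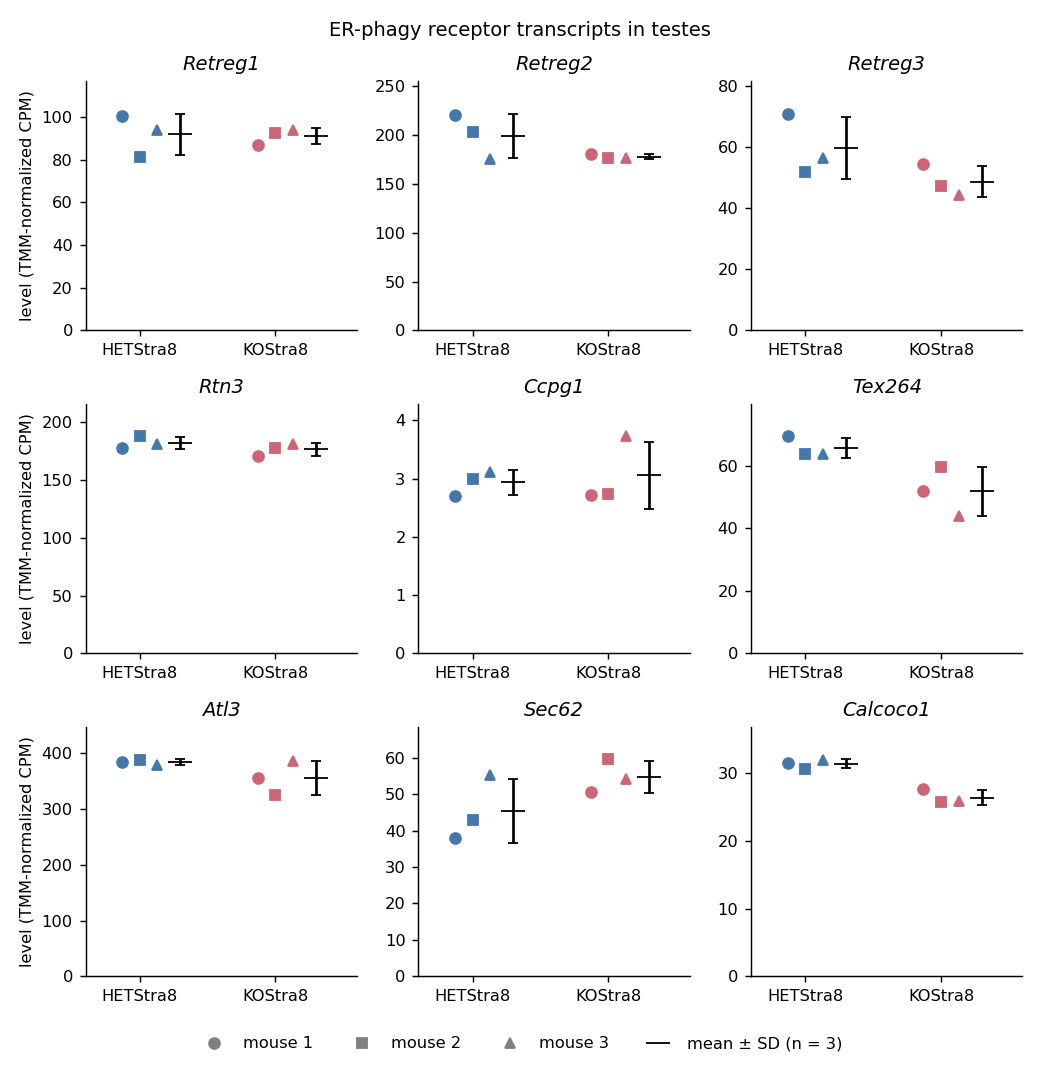
Level of the 9 ER-phagy receptors in TMM-normalized CPM (vertical axes from 0), with 1 symbol per mouse and the mean ± SD of 3 mice beside each group. Tex264 and Calcoco1 show no overlap, with KOStra8 lower, while in Sec62 the KOStra8 mice are higher than 2 of the 3 HETStra8 mice.

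None of the 6 genes of the lipid kinase complex reached an unadjusted p of 0.05, the groups of each overlapped, and log2 fold changes ran from -0.1 for Atg14, which directs the kinase to autophagy, to 0.14 for Pik3r4, its regulatory subunit. Pik3c3, the catalytic subunit, and Ambra1, a scaffold of the complex, were at 0.05 and 0.03. Becn1, the scaffold and regulator of the kinase, was the most abundant per kilobase at 15.8 ± 0.49 CPM per kb, and its level was 114, 113 and 108 CPM in HETStra8 and 104, 112 and 102 CPM in KOStra8. Uvrag, which takes the place of ATG14 in the endosomal form of the complex, was the least abundant at 1.67 ± 0.24 CPM per kb.

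Among the 9 genes for membrane supply, 8 had a log2 fold change below 0, beside 51.5% of all genes tested. Of the 9, Atg9a alone reached an unadjusted p of 0.05, lower in KOStra8, beside 5.12% of all genes. Atg9a, the lipid scramblase carried on vesicles to the forming autophagosome, had 272, 256 and 241 CPM in HETStra8 and 224, 211 and 218 CPM in KOStra8. Every KOStra8 mouse was below every HETStra8 mouse, as in 8.43% of all genes tested. The log2 fold change was -0.24 with an interval of -0.39 to -0.08 and failed the correction over all genes (edgeR's quasi-likelihood test with Benjamini-Hochberg adjustment, adjusted p = 0.231), and it was -0.09 after the GC and length correction. Without HETStra8 mouse 3, Atg9a passed an adjusted p of 0.05 at 0.035 in the same test, as did 4.9% of all genes without that mouse.

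The remaining genes for membrane supply had intervals that included 0. They were the lipid transporters Atg2a and Atg2b, the scramblases Vmp1, Tmem41b and Atg9b, and the WIPI proteins Wipi1, Wipi2 and Wdr45, which bind the lipid made by the kinase complex. Before the GC and length correction Tmem41b was the only 1 of the 9 above 0, at 0.09, and after it Tmem41b was at -0.06. Its groups of 52.0 to 56.3 and 56.6 to 61.2 CPM did not overlap, as in 9.33% of all genes with KOStra8 higher. Atg9b and Wdr45 had few reads assigned, at means of 1.98 and 1.32 CPM in HETStra8, and the log2 fold change of -0.45 for Wdr45 had an interval of -1.22 to 0.31.

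In the conjugation system, 7 of 11 genes had a log2 fold change below 0, beside 51.5% of all genes tested. Atg4c, a protease that trims LC3 and GABARAP proteins, alone reached an unadjusted p of 0.05, higher in KOStra8, beside 7.13% of all genes. It had 22.9, 28.4 and 23.6 CPM in HETStra8 and 26.8, 29.1 and 35.4 CPM in KOStra8. The groups overlapped because HETStra8 mouse 2 lay above KOStra8 mouse 1, and the log2 fold change was 0.29 with an interval of 0.02 to 0.55, and 0.2 after the GC and length correction, when it no longer reached an unadjusted p of 0.05. Its paralogs Atg4a, Atg4b and Atg4d were at -0.15, -0.15 and -0.27, all with intervals that included 0.

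Atg7, the activating enzyme of both conjugation reactions, had the highest level of these genes at 10.3 ± 1.96 CPM per kb in HETStra8. It had 85.0, 72.5 and 57.8 CPM in HETStra8 and 54.2, 68.9 and 54.7 CPM in KOStra8, with overlap and a log2 fold change of -0.28. Atg10, the E2-like enzyme for ATG12, had groups without overlap, 0.668 to 1.14 and 1.23 to 1.94 CPM, as in 9.33% of all genes with KOStra8 higher. Its log2 fold change was 0.72, close to that of Rb1cc1, and 0.52 after the GC and length correction. With 21 to 56 counts in a library the interval before correction was -0.04 to 1.48, and the GC content of Atg10, 40.3%, was among the 3 lowest. Atg3, the E2-like enzyme for LC3, was at 0.2, and Atg5, Atg12, Atg16l1 and Atg16l2, whose products form the complex that directs LC3 to membrane, ran from -0.13 to 0.06.

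The 5 LC3 and GABARAP genes all had a log2 fold change below 0, beside 51.5% of all genes tested. They ran from -0.23 for Gabarapl2 to -0.06 for Gabarapl1, with a median of -0.15, and none reached an unadjusted p of 0.05. Gabarap, the most abundant, had 269, 254 and 241 CPM in HETStra8 and 222, 244 and 230.0 CPM in KOStra8, with overlap between HETStra8 mouse 3 and KOStra8 mouse 2. Map1lc3a and Map1lc3b were at -0.15 and -0.19. Gabarapl2 was the least abundant at 7.59 ± 1.12 CPM per kb. After the GC and length correction Map1lc3a and Gabarapl1 lay above 0, at 0.0038 and 0.05, and the others below.

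Of the 3 general cargo receptors, Sqstm1 (p62), which links ubiquitinated cargo to LC3, was lower at an unadjusted p of 0.05, beside 5.12% of all genes. It had 97.9, 80.9 and 75.1 CPM in HETStra8 and 66.7, 74.9 and 66.0 CPM in KOStra8. The groups did not overlap, but HETStra8 mouse 3 and KOStra8 mouse 2 were nearly level. The log2 fold change was -0.29 with an interval of -0.51 to -0.07 and failed the correction over all genes (edgeR's quasi-likelihood test with Benjamini-Hochberg adjustment, adjusted p = 0.286, and 0.042 without HETStra8 mouse 3, when 4.9% of all genes passed 0.05). It came to -0.15 after the GC and length correction and no longer reached an unadjusted p of 0.05. Nbr1, a receptor related to p62, was the most abundant member by CPM, with 896, 899.6 and 831 CPM in HETStra8 and 772, 808 and 852 CPM in KOStra8, and a log2 fold change of -0.11. Optn, the receptor known from mitophagy, was at 0.0023.

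Tfeb, a transcription factor that drives lysosome and autophagy genes, was rare, with 4.84, 6.72 and 3.96 CPM in HETStra8 and 3.67, 4.49 and 4.27 CPM in KOStra8. HETStra8 mouse 3 lay within the KOStra8 range, and the log2 fold change of -0.32 had an interval of -0.79 to 0.15. Epg5, a tether for fusion of autophagosomes with lysosomes, was at -0.03, with 22.1 to 27.9 CPM in HETStra8 and 22.0 to 26.3 CPM in KOStra8.

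**Figure D5:**
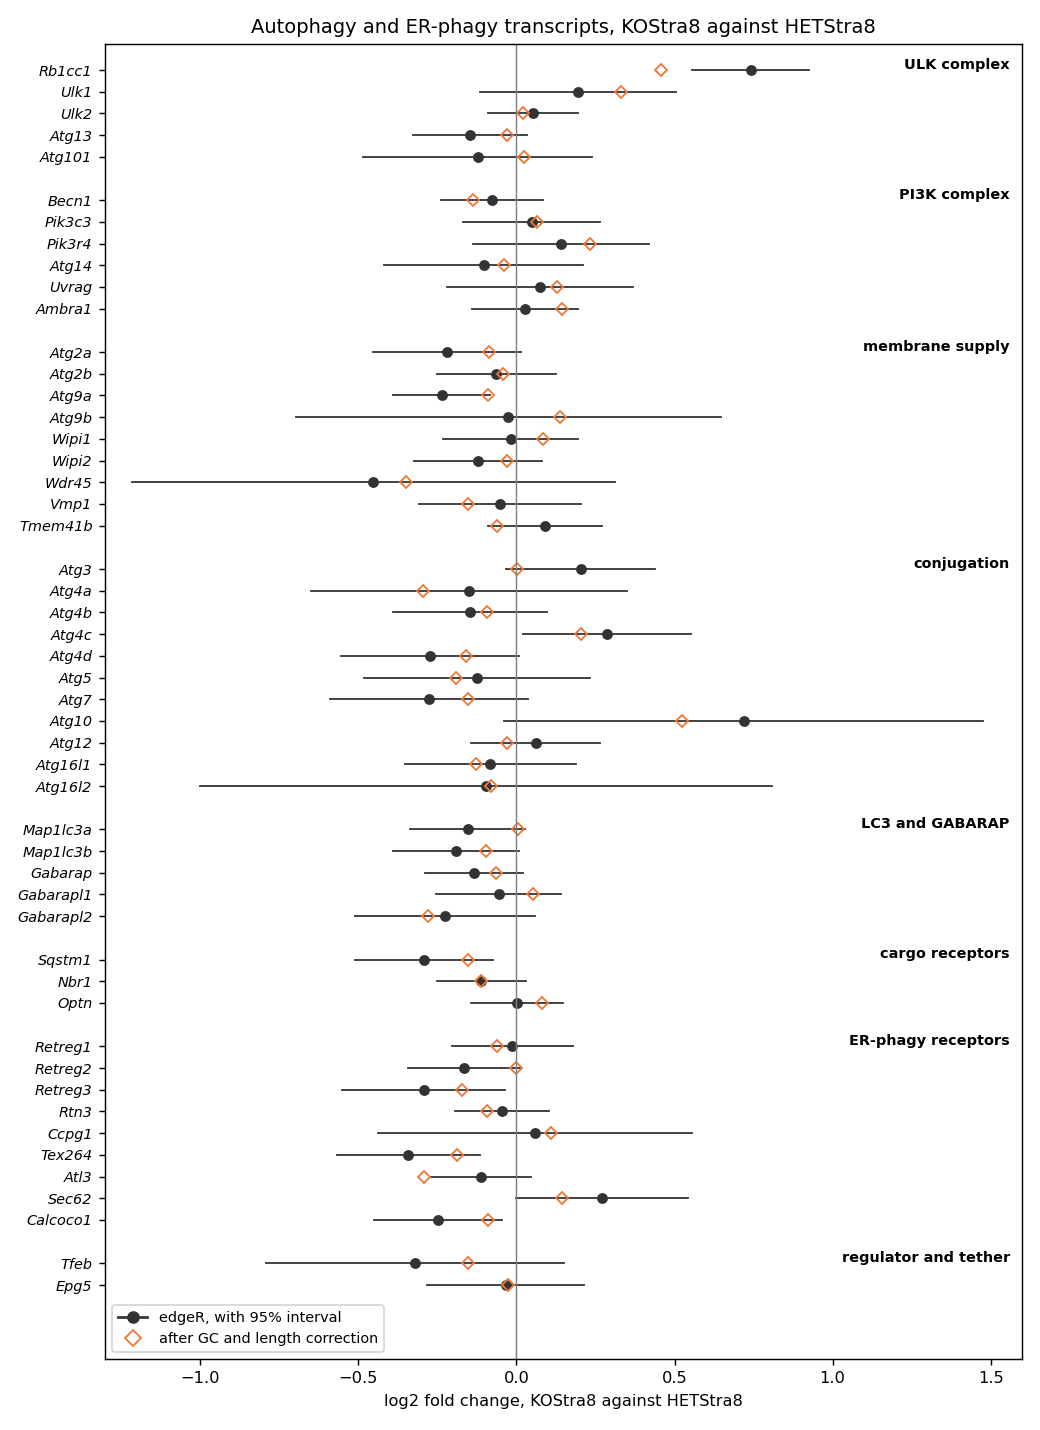
Log2 fold change of KOStra8 against HETStra8 (horizontal axis) for the 50 members by role. Dots and lines are the edgeR estimate with its 95% interval, and open diamonds the estimate after the GC and length correction. The interval of Rb1cc1 runs from 0.56 to 0.93, and 43 of the 50 intervals include 0.

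Seen over the whole list, 3 members had groups without overlap with KOStra8 higher, Rb1cc1, Tmem41b and Atg10, beside 9.33% of all genes. Without Rb1cc1, which was chosen on this contrast, 2 of 49 remain. A further 5 had groups without overlap with KOStra8 lower, Atg13, Atg9a, Sqstm1, Tex264 and Calcoco1, beside 8.43% of all genes. With GC content and length corrected for, 3 members reached an unadjusted p of 0.05, beside 7.47% of all genes, and these were Rb1cc1, higher, and Tex264 and Atl3, lower, of which Atl3 had not reached it before. Of the marker lists for somatic cells of the testis, that of Sertoli cells summed to less in KOStra8 without overlap. The 9 Sertoli cell markers summed to 1033 to 1241 CPM in HETStra8 and 855 to 982 CPM in KOStra8, all 9 had a log2 fold change below 0 and none was at 0 counts, although Sox9 and Wt1 were at -0.01 and -0.05. The 7 Leydig cell markers, also all below 0 and all detected, summed to 534 to 813 CPM in HETStra8 and 446.5 to 579 CPM in KOStra8, with overlap. The sums of peritubular myoid, macrophage and endothelial markers overlapped too, and KOStra8 mouse 1 had the highest macrophage sum, 80.2 CPM. Of 9 markers of elongating spermatids, 8 were below 0, with overlapping sums of 16750 to 16860 CPM in HETStra8 and 15030 to 16800 CPM in KOStra8. The part of these cells in the lower values was not tested.

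Genes that act beside the members were read from separate lists. Of 24 genes for autophagosome fusion and the lysosome, 21 had a log2 fold change below 0 and 6 reached an unadjusted p of 0.05, all lower, beside 51.5% and, for lower values, 5.12% of all genes. The 6 were Ykt6, Vps11, Vps18, Ctsb, Ctsd and Hexa. The correction left Vps18 and the cathepsin gene Ctsb at that level and brought Stx17, Lamp2, Ctsl and Atp6v1h to it, all 6 lower, beside 7.47% of all genes in either direction. The smallest p belonged to Vps18, a core subunit of the HOPS tethering complex, with 25.1, 22.3 and 20.9 CPM in HETStra8 and 17.8, 17.7 and 15.9 CPM in KOStra8. Its groups did not overlap, and the log2 fold change of -0.41 had an interval of -0.65 to -0.17 (edgeR's quasi-likelihood test with Benjamini-Hochberg adjustment, adjusted p = 0.193, and 0.04 without HETStra8 mouse 3, when 4.9% of all genes passed 0.05). It was -0.25 after the correction. With all 6 mice, none of the 24 passed an adjusted p of 0.05.

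Among 8 genes for UFMylation in ER-phagy, a ubiquitin-like modification made at the ER, 1 was higher and 2 were lower at an unadjusted p of 0.05, beside 7.13% and 5.12% of all genes. Ufl1, the ligase, had 56.3, 56.6 and 65.5 CPM in HETStra8 and 75.2, 67.1 and 71.7 CPM in KOStra8, a log2 fold change of 0.26. Ddrgk1, which anchors that ligase in the ER membrane, had 43.4, 42.9 and 41.5 CPM in HETStra8 and 35.4, 37.3 and 34.7 CPM in KOStra8, a log2 fold change of -0.25. Neither gene's groups overlapped, yet the values shrank to 0.05 and -0.11 after the GC and length correction. Ufsp2 instead moved from 0.01 to -0.38. With the correction it alone of the 8 reached an unadjusted p of 0.05, beside 7.47% of all genes.

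In 24 genes for control by mTORC1 and AMPK, 1 reached an unadjusted p of 0.05, beside 12.3% of all genes. This was Tsc2, a brake on mTORC1, with means of 51.6 ± 2.75 and 42.6 ± 3.41 CPM (SD, n = 3) and a log2 fold change of -0.28, which was -0.17 after the GC and length correction. Among 23 genes for other machinery and selective receptors, 2 were higher and 2 lower at that level, beside 7.13% and 5.12% of all genes, and none of the 23 reached it after the correction. Tax1bp1, a cargo receptor that also binds RB1CC1, had 332, 382 and 471 CPM in HETStra8 and 476, 465 and 497 CPM in KOStra8, with a log2 fold change of 0.28. HETStra8 mouse 3 lay within the KOStra8 range, and without that mouse Tax1bp1 passed an adjusted p of 0.01 at 0.002 in edgeR's quasi-likelihood test with Benjamini-Hochberg adjustment, where 2.01% of all genes did. With all mice and the GC and length correction its log2 fold change was 0.06. Zfyve1, a marker protein of the ER sites where autophagosomes form, was at -0.19, with 125 ± 5.26 and 109.9 ± 2.38 CPM, and at -0.09 after the correction.

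Since Tfeb is a member, the promoters were read for its binding word. RefSeq windows of 300 bases on GRCm38.p6, from 250 bases before to 50 after an annotated start, were held for 43 of the 50 members, that is, all but Rb1cc1, Becn1, Pik3c3, Atg12, Atg16l1, Map1lc3a and Epg5. The word CACGTG, which reads the same on both strands and is the core of the E-box bound by TFEB, was in 7 of 54 such windows, 13%, and in 7.15% of all 32851 windows. Of 27 members with a window within 50 bases of their GENCODE start, 4 held CACGTG. Their windows are shown because they hold the word next to the start used for the counts, with the word in capitals and the plus strand read 5′ to 3′. They lie at chr16:45158579-45158878 (Atg3), chr10:44268089-44268388 (Atg5), chr1:75142536-75142835 (Retreg2) and chr3:30792626-30792925 (Sec62).
Atg3: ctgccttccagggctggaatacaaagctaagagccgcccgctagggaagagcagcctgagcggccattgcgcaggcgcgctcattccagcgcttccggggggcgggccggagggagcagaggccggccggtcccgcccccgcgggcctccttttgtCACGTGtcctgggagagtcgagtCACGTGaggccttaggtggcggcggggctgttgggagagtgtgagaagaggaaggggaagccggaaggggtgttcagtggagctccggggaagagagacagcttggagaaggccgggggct
Atg5: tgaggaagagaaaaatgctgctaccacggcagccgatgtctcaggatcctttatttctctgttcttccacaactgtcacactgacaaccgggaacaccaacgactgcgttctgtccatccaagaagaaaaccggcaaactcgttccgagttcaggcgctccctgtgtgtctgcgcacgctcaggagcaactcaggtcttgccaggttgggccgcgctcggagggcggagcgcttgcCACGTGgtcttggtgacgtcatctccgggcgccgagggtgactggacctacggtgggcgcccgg
Retreg2: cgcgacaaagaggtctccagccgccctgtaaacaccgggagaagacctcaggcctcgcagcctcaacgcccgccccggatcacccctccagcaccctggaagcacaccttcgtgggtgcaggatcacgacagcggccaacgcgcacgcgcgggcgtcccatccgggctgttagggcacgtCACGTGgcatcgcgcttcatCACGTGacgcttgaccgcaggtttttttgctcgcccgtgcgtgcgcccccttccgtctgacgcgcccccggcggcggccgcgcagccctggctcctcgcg
Sec62: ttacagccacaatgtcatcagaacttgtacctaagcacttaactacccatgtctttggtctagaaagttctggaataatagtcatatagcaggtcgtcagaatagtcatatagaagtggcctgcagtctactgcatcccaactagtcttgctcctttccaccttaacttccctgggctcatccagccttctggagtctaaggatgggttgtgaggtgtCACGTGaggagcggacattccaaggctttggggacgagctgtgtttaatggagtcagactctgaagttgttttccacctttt
Atg3 and Retreg2 each held the word at 2 places, 94 and 71 bases and 70 and 50 bases before the RefSeq start, while Atg5 and Sec62 held it once, at 14 and 32 bases before it. The log2 fold changes of these 4 genes, 0.2, -0.13, -0.16 and 0.27, fell on both sides of 0, and the intervals of all 4 included 0. A match to these letters is a description of the sequence and no measurement of binding.

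Some members share sequence or exons with other genes, and their values are uncertain to that extent. For Becn1, 36.8% of the 50-base sequences of its transcripts are also held by Cntd1 on the opposite strand, a gene with 112.9 and 131.5 CPM in HETStra8 and KOStra8. Of the Ccpg1 exons 42.9% overlap the readthrough gene model Gm44503 on the same strand, to which no count was assigned, as was the case for Gm29253 over Atg9a and Gm45208 over Wdr45. Atg4a shares 51.2% of its 50-base sequences with the pseudogene Atg4a-ps, which had at most 2 counts in a library. Opposite-strand exon overlap with a gene that passed the filter was 28.9% for Ccpg1, whose partner Pigb had 5.98 and 6.23 CPM in HETStra8 and KOStra8, 28.3% for Gabarapl1, 19.3% for Atg4d, 17.3% for Sqstm1 and 11.7% for Sec62. Mrnip, the partner of Sqstm1, had 24.2 and 20.4 CPM, a log2 fold change of -0.25, and groups without overlap. For Uvrag the overlap was 17.6%, with Gm45187, which had at most 4 counts in a library. For Rb1cc1, 4.51% is shared with Gm13961, which had 3 to 14 counts in a library, and 3.8% of its exon bases overlap the antisense gene 4732440D04Rik, which had 31 to 71 counts beside at least 11827 of Rb1cc1. The libraries were directional, but the strand setting of the counting is not given in the sources used here, so a gene and its antisense partner may not be separated.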

How the data were processed

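Total RNA of 6 testes, 1 per mouse, was made into poly(A)+ directional libraries and sequenced in paired ends. For every mouse the authors deposited counts of reads, not normalized, for 55536 Ensembl genes. The submitters' processing notes name mm10 and GRCm38, Trimmomatic, STAR 2.7.1a, Picard 2.20.4, StringTie 2.0.4, featureCounts 1.6.0 and HTSeq, without roles or settings.

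The 2 genotypes were compared by edgeR 4.0.16 (R 4.3.3), without covariates, after filterByExpr and TMM normalization, with the robust quasi-likelihood F test, two-sided, and Benjamini-Hochberg adjustment over 21465 genes. The main threshold was an adjusted p of 0.01, taken from the study. CPM are TMM-normalized, and ratios used log2 CPM with a prior count of 2. Nothing in the sources used here places the 3 mice of a group in separate litters, so p-values measure the spread between these mice. An exact permutation test of 3 against 3 cannot give a p below 0.1. Symbols, positions, exon lengths and GC content came from GENCODE M21 on GRCm38, and promoter windows from RefSeq on GRCm38.p6.

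Members and gene lists were chosen with earlier results of these data known. Named genes were Sel1l, the ULK complex, the ER-phagy receptors, members at an unadjusted p below 0.05, the members with the highest and lowest level per length in each role, and in each pathway list the gene with the smallest p in each direction among those below 0.05. Other genes were added as examples after their values were seen. Alternatives were DESeq2 size factors, library totals, no filter, at least 10 counts in every library, the replicate number as a block, loess offsets per library for GC content and length (span 0.3, fitted above a log2 CPM of 2, with 8 genes uncorrected for want of a GC value), both together, DESeq2 1.42.0, limma-voom 3.58.1 and leaving out each mouse. The fit was tested on simulated data.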

Additional observations from a re-analysis of the deposited data

How the results depend on the processing

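Genes called higher, 3 in all, numbered 337 with no low-count filter, 31 with the replicate block, 121 with DESeq2 and 1 to 421 with single mice left out, most of them without HETStra8 mouse 3. Genes called lower, 1 in all, numbered 48 with no filter, 11 with DESeq2 and 0 to 22 with single mice left out. Members called, 1 in all, numbered 7 at an unadjusted p of 0.05, 0 with the replicate block and GC and length correction together, and 0 to 1 with single mice left out. Members at an unadjusted p below 0.05 numbered, higher and lower, 1 and 2 with the GC and length correction, 8 lower with no filter, 8 lower with the replicate block, 1 lower with the block and correction together, and 1 to 5 higher and 2 to 17 lower with single mice left out. Of all 21465 genes tested, 929 were higher and 675 lower at that level with the correction, and 1628 and 1002 with the block. Without HETStra8 mouse 3, 2428 and 1947 of 22091 genes were. The log2 fold change of Rb1cc1 was 0.66 to 0.83 with single mice left out and 0.46 with the block and correction together, where its adjusted p in edgeR's quasi-likelihood test with Benjamini-Hochberg adjustment was 0.011, against 7.14e-18 to 0.011 over the 9 settings that kept all mice. That of Sel1l was -1.13 to -1.01 with single mice left out, and its adjusted p passed 0.01 upward without KOStra8 mouse 2 or 3. Rb1cc1 against its partners differed by 0.37 with the GC and length correction, with or without the block, and against the ER-phagy receptors by 0.53 in both. The median log2 fold change of the lipid kinase complex was 0.099 with block and correction together, and with single mice left out the median ran from -0.16 to -0.026 for membrane supply and from -0.16 to -0.046 for the ER-phagy receptors.

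Signs turned for genes near 0. Atg101 was at 0.023 with the GC and length correction and at 0.022 with the block as well, and Retreg2 at 1e-04 with both. With single mice left out, Retreg1 ran from -0.094 to 0.054 (0.01 without HETStra8 mouse 3, 0.03 without KOStra8 mouse 1), Ccpg1 from -0.11 to 0.14, Atg16l2 from -0.46 to 0.26 (0.01 and 0.08 without HETStra8 mouse 2 or 3), Uvrag from -0.029 to 0.16 (-0.0046 without KOStra8 mouse 1) and Epg5 from -0.11 to 0.046 (0.04 without KOStra8 mouse 2). The cause was not tested. The mouse numbers did not pair the samples: deviations of same-numbered mice from their group means correlated at -0.06, -0.05 and 0.11, so the replicate block is only an alternative. Members with few counts, such as Atg10, Wdr45 and Atg16l2, have intervals too wide to show a difference of the size of most members here.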
